A study of Rattus norvegicus with 8 samples.

Results

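Ribosomal protein genes were examined in isolated rat hearts perfused with or without the anthracycline doxorubicin, an anticancer drug that intercalates into DNA, poisons topoisomerase II and is known for its toxicity to the heart. Members were the genes whose symbol marks a cytosolic ribosomal protein (Rpl, Rps, Rplp or Rpsa) or a mitochondrial one (Mrpl or Mrps), read from probe sets to which the platform annotation gives a single symbol, with the Rps6k kinases left out. A gene with several such probe sets was represented by the one with the highest mean over the 8 arrays. This gave 123 genes of 14217, of which 50 were cytosolic (16 of the small and 34 of the large subunit) and 73 mitochondrial (27 with an Mrps and 46 with an Mrpl symbol). Together they have 154 probe sets of 31042. A further 16 symbols, among them Rps2, Rps7, Rps19 and Rplp1, occur only on probe sets with several symbols and are not members, and in all 36 such probe sets were left out. The rule goes by symbol, so a few members are paralogs or pseudogene entries (Rpl39l1, Rpl37-ps2, Rps4x-ps1) and Mrpl58 is a peptide release factor that is built into the mitochondrial ribosome.

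The doxorubicin group holds 4 hearts of male Wistar rats, each perfused for 2 h through the aorta in a Langendorff apparatus with 2 µM doxorubicin added. The control group holds 4 hearts of such rats perfused for 2 h without the drug. All 8 hearts were thus excised, denervated and fed without recirculation of the perfusate, and the labels number the hearts of a group as biological replicates. Levels are log2 intensities of RMA-processed Affymetrix arrays with 1 array per heart, and differences are doxorubicin minus control. Because the arrays were normalized together and read whole-heart RNA, a shift shared by most transcripts would not show, and fewer cells of a type cannot be told apart from less RNA per cell.

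Cytosolic ribosomes, made of a small subunit that reads the mRNA and a large subunit that forms peptide bonds, translate nearly all cellular proteins. Many mRNAs of their proteins begin with a C followed by a run of pyrimidines, the terminal oligopyrimidine tract, through which mTORC1 signalling controls their translation. Mitochondrial ribosomes, whose proteins are all encoded in the nucleus in mammals, make the respiratory chain subunits encoded in mitochondrial DNA, and the beating heart depends on that chain for most of its ATP. When assembly of the cytosolic ribosome fails, free Rpl5, Rpl11 and Rpl23 can bind Mdm2 and stabilize p53.

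Sequence around the transcription start was compared between the 2 classes, since a pyrimidine tract there is the known mark of cytosolic members. RefSeq promoters (GRCr8 assembly, the first entry of each gene by position) were available for 43 of the 50 cytosolic and 59 of the 73 mitochondrial members, matched by gene ID or symbol. A C followed by at least 5 pyrimidines (C or T, on the gene's strand) began within 15 bases of the annotated start in 32 of 43 cytosolic genes (74.4%) and 17 of 59 mitochondrial genes (28.8%). The share was 24.6% of the 11733 genes on the array with a promoter entry and 24.8% of all 27457 RefSeq promoters. The 30 bases centred on the start, 15 on each side, are printed for 5 cytosolic members whose hearts are described in detail, for Rplp0, a common reference transcript, and for the mitochondrial members with the largest positive and negative difference. Capitals mark the pyrimidine tract, and a sequence without capitals has none in this window.
Rps28, chr7:15311319-15311348, minus strand: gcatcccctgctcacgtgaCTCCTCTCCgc
Rpl37a, chr9:81748076-81748105, plus strand: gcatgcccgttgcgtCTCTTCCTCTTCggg
Rpl34, chr2:221962269-221962298, minus strand: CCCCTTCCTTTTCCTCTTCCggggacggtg
Rpl35, chr3:43165907-43165936, minus strand: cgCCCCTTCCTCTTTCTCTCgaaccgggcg
Rplp0, chr12:46718376-46718405, minus strand: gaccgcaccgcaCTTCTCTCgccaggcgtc
Rpl41, chr7:1563483-1563512, minus strand: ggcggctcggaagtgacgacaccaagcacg
Mrpl48, chr1:164351362-164351391, minus strand: tgatgaagaCCTTTCCggtcgcgttttcag
Mrpl53, chr4:117173028-117173057, plus strand: ttccggggcggaggtaaccatggcggcggc

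In windows of 300 bases (250 before and 50 after the start, both strands searched), the ETS-type motif CCGGAAG occurred in 10 cytosolic promoters (23.3%) and 19 mitochondrial promoters (32.2%), against 15.03% of promoters of genes on the array and 9.21% of all RefSeq promoters. The YY1-type motif ATGGCGG occurred in 12 cytosolic (27.9%) and 13 mitochondrial promoters (22.03%), against 8.51% on the array and 5.21% of all. TATAAA occurred in 13.95% of cytosolic and 13.56% of mitochondrial promoters, which lies above the 8.44% on the array but not above the 14.26% of all RefSeq promoters. The palindromic NRF1 motif occurred in 0 cytosolic and 4 mitochondrial promoters (6.78%), against 1.63% on the array and 0.936% of all. These are letter matches at annotated starts, not bound sites, and no array value entered them.

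Some arrays stood apart from the others in technical measures. Array medians were 29.85 to 30.42 on the linear scale in doxorubicin hearts and 30.04 to 30.97 in control hearts. The level of spiked hybridization controls was 10.02 ± 0.08 in doxorubicin and 10.32 ± 0.17 in control arrays (SD, n = 4 each), a difference of -0.30 (exact permutation p = 0.0286, the smallest that 4 against 4 allows, adjusted p = 0.114 over 4 measures). Every control array lay above every doxorubicin array (10.21 to 10.57 against 9.97 to 10.13), so this level and the drug cannot be told apart. The control probe set for 5S ribosomal RNA was at 4.38 ± 0.11 in doxorubicin and 4.58 ± 0.24 in control hearts (exact permutation p = 0.229), with control heart 1 highest at 4.89. The same heart had the largest difference between 3′ and 5′ GAPDH control probe sets, 0.26, and control heart 3 the smallest, 0.09. Cardiomyocyte markers, which define the labelled tissue, had 7 of 8 measured and a summed level of 16.4 in all 8 hearts. Red cell markers (3 of 6 measured) summed to 7.61 to 8.19 in doxorubicin and 7.86 to 7.93 in control hearts, macrophage markers (6 of 6) to 9.47 to 9.99 and 9.57 to 9.99, and fibroblast markers (6 of 6) to 13.7 to 14.1 and 13.3 to 13.9. Atrial markers (4 of 5) varied most, from 10.5 to 14.3 in doxorubicin and from 10.2 to 13.3 in control hearts. By mean deviation from each gene's 8-heart mean, control heart 1 was the lowest for atrial (-2.62), fibroblast (-0.52) and smooth muscle and pericyte markers (-0.35). It was not the lowest for cardiomyocyte, macrophage or red cell markers. For adipocyte markers doxorubicin heart 4 was the highest (1.88). No marker of these lists was called, and the part of these measures in the values that follow was not tested.

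Cytosolic ribosomal protein transcripts stood apart in 2 of the 8 hearts. Their mean deviation from each gene's 8-heart mean was 0.02, -0.19, 0.01 and 0.0067 in doxorubicin hearts 1 to 4, against 0.15, 0.04, -0.0055 and -0.04 in control hearts 1 to 4. Doxorubicin heart 2 was low and control heart 1 high, while the other 6 hearts lay close together. Doxorubicin heart 2 was the lowest of the 8 in 29 of 50 cytosolic genes (58%), compared with 9.21% of all genes, and control heart 1 was the highest in 24 of 50 (48%), compared with 19.1% of all genes. The direction was not shared by every gene. Control heart 1 was the lowest in 9 of the 50 (18%), near its share of 18.9% of all genes.

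**Figure D1:**
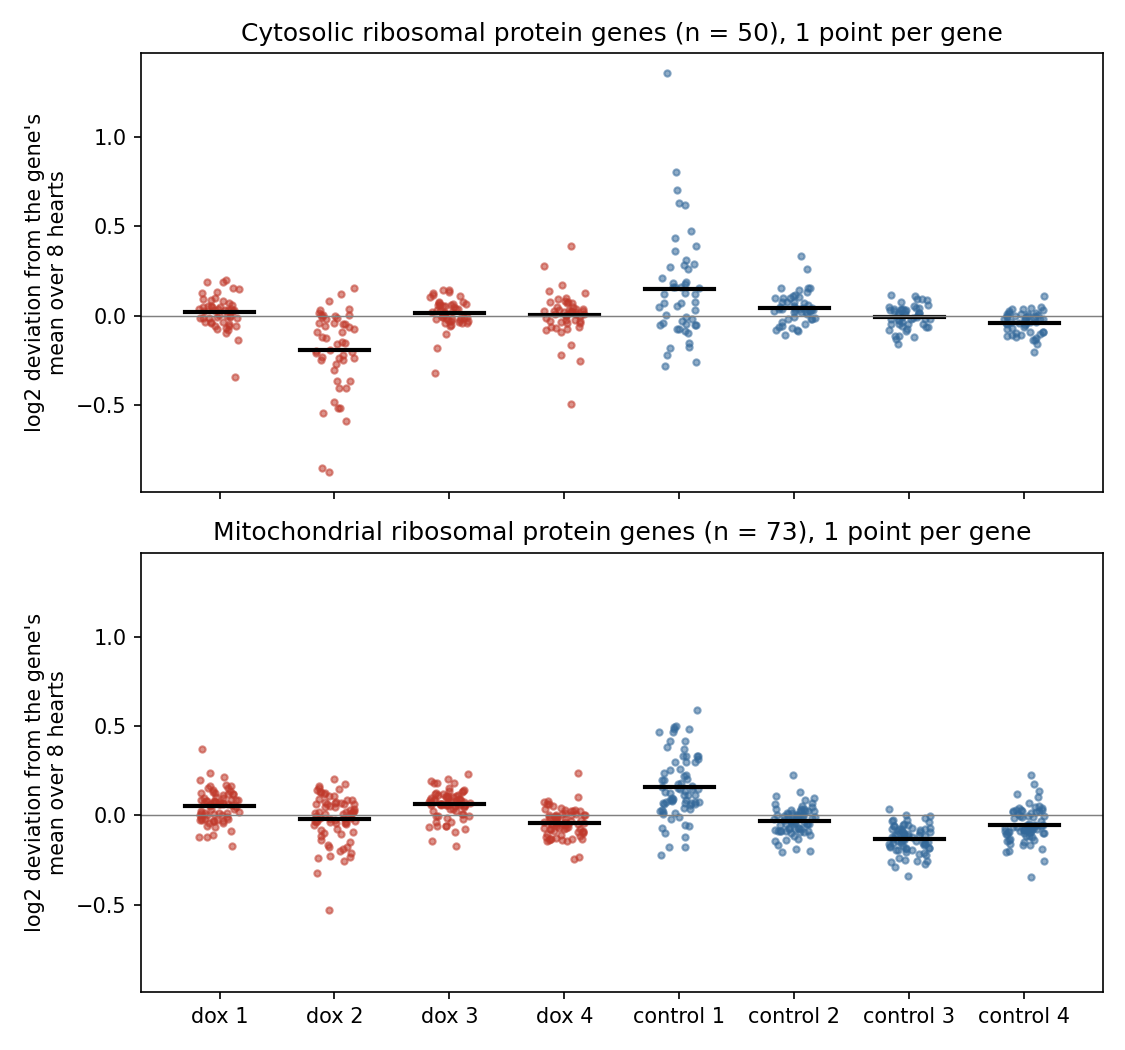
Log2 deviation of each cytosolic (upper panel, n = 50) and mitochondrial (lower panel, n = 73) ribosomal protein gene from its own mean over 8 hearts, with doxorubicin hearts on the left and control hearts on the right. Points are genes, and the mean per heart is lowest in doxorubicin heart 2 (-0.19) for cytosolic genes and highest in control heart 1 for both classes (0.15 and 0.16).

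Mitochondrial ribosomal protein transcripts shared the high control heart but not the low doxorubicin heart. Their mean deviation was 0.05, -0.02, 0.06 and -0.04 in doxorubicin hearts 1 to 4, against 0.16, -0.03, -0.13 and -0.05 in control hearts 1 to 4. Control heart 1 was the highest in 39 of 73 genes (53.4%). The lowest heart was most often another one, control heart 3, in 36 of 73 (49.3%), compared with 12.8% of all genes and 3 of the 50 cytosolic genes. Doxorubicin heart 2 was lowest in 12 of 73 (16.4%). With 1 control heart high and another low, the SD of these means was 0.05 over the doxorubicin hearts and 0.12 over the control hearts.

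**Figure D2:**
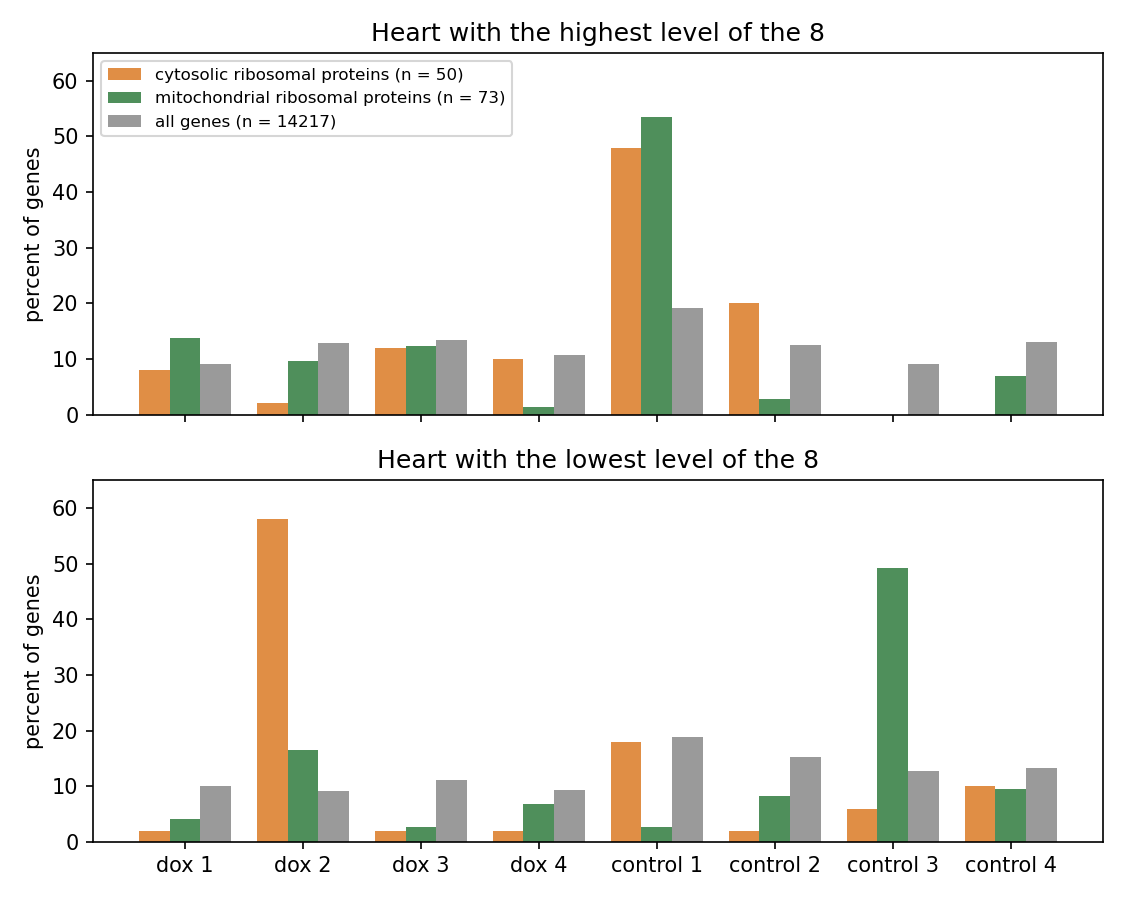
Percent of cytosolic, mitochondrial and all genes for which each heart, along the horizontal axis, held the highest (upper panel) or the lowest (lower panel) level of the 8. Doxorubicin heart 2 holds the lowest level in 58% of cytosolic genes and control heart 3 in 49.3% of mitochondrial genes, against 9.21% and 12.8% of all genes.

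Doxorubicin against control, tested with limma over all 31042 probe sets, gave a call for 1 of the 123 genes. Of the 50 cytosolic genes 0 were called at a limma adjusted p under 0.05, compared with 0.802% of all genes called higher and 2.17% called lower (2.97% in either direction). At an unadjusted p under 0.05, 1 cytosolic gene was higher and 2 were lower, that is 1 and 2 of 50 beside 9.67% and 7.07% of all genes. Of the 73 mitochondrial genes 1 was called higher and 0 lower, and an unadjusted p under 0.05 was reached by 8 that were higher and 1 that was lower, so these shares lay near or below the background. The groups of 4 hearts did not overlap for 1 cytosolic gene that was higher and 1 that was lower, and for 5 mitochondrial genes that were higher and 1 that was lower, beside 5.75% and 4.69% of all genes.

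The sizes of the differences were small. The median difference was -0.04 over the cytosolic genes (range -0.72 to 0.20, 18 positive and 32 negative) and 0.03 over the mitochondrial genes (range -0.24 to 0.33, 45 positive and 28 negative), beside 0.0063 over all 14217 genes. A difference of less than 0.25 in size was found for 44 of 50 cytosolic and 72 of 73 mitochondrial genes. By subunit the medians were -0.09 for the cytosolic small, -0.04 for the cytosolic large, 0.03 for the mitochondrial small and 0.04 for the mitochondrial large subunit. These class medians rest on single hearts: without doxorubicin heart 2 the cytosolic median was -0.0034, and without both doxorubicin heart 2 and control heart 1 it was 0.02, with 30 of 50 genes positive. The mitochondrial median was 0.08 without control heart 1, -0.0058 without control heart 3, and 0.10 without both doxorubicin heart 2 and control heart 1. Adjusted for the hybridization controls, as a covariate, it was -0.04, with 24 of 73 positive. Since that level did not overlap between the groups, the covariate and the drug cannot be told apart.

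**Figure D3:**
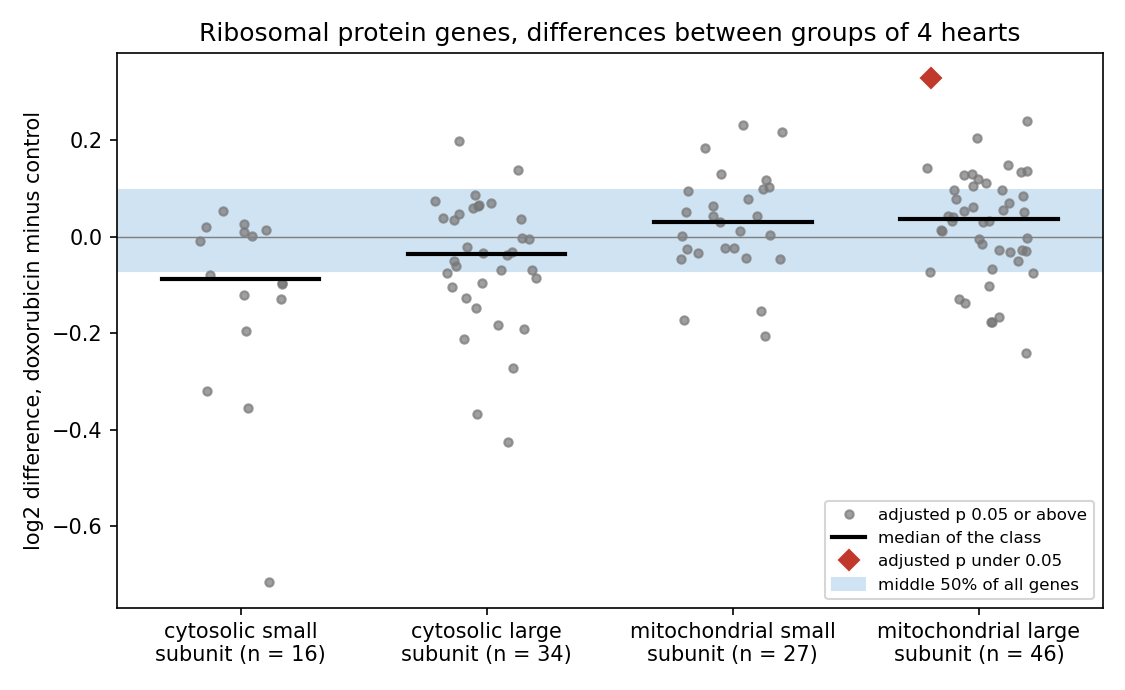
Log2 differences, doxorubicin minus control, of single ribosomal protein genes by subunit class along the horizontal axis, with the class median as a bar. Most points lie within 0.25 of 0, the lowest being Rps28 (-0.72) and the highest Mrpl48 (0.33), the member called at a limma adjusted p under 0.05.

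Among small subunit proteins of the cytosolic ribosome, Rps28, a short protein near the mRNA exit, had the largest difference. Rps28 was at 9.62, 8.85, 9.76 and 9.23 in doxorubicin hearts, against 11.08, 9.68, 9.73 and 9.83 in control hearts. Control heart 1 was more than 1 log2 unit above every other heart, doxorubicin heart 2 was the lowest, and the groups overlapped. The difference was -0.72 (SE 0.31, limma adjusted p = 0.353), -0.38 without control heart 1 and -0.21 without both that heart and doxorubicin heart 2. Rps29, a small zinc-binding protein of the subunit's head, was at 12.60, 12.09, 12.65 and 12.35 in doxorubicin hearts, against 13.40, 12.52, 12.64 and 12.55 in control hearts. Again control heart 1 was high and doxorubicin heart 2 low. Its difference of -0.36 (SE 0.20, adjusted p = 0.506) was -0.15 without control heart 1 and -0.03 without both hearts.

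Rps23, a protein of the decoding centre, was the cytosolic small subunit gene whose groups did not overlap. It was at 12.26, 12.09, 12.29 and 12.33 in doxorubicin hearts, against 12.37, 12.41, 12.35 and 12.35 in control hearts. Doxorubicin heart 2 was the lowest and the other 3 doxorubicin hearts lay within 0.1 of the control hearts' range (difference -0.13, SE 0.06, adjusted p = 0.431). Rps4y2, a paralog of Rps4x, was at 4.995, 4.972, 5.016 and 5.73 in doxorubicin hearts, against 5.96, 5.67, 5.22 and 5.14 in control hearts, and overlapped (difference -0.32, SE 0.22, adjusted p = 0.602).

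Other small subunit proteins with known roles differed little. Rps6, the subunit's main phosphorylation target of the S6 kinases, was at 12.64, 12.47, 12.62 and 12.64 in doxorubicin hearts, against 12.59, 12.61, 12.61 and 12.55 in control hearts, a difference of 0.0017 (SE 0.06, adjusted p = 0.995). Doxorubicin heart 2 was the lowest here too, by about 0.1. Rpsa, also known as the laminin receptor precursor, differed by 0.03 (SE 0.06), Rps3, which lines the mRNA entry channel, by 0.02 (SE 0.06), and Rps27l, a p53-responsive paralog of Rps27 in human cells, by -0.01 (SE 0.08). With these errors, differences of 0.2 log2 units could have gone uncalled.

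Large subunit proteins of the cytosolic ribosome gave the same picture of 2 hearts at the extremes. Rpl41, among the shortest proteins known in the ribosome, was at 10.79, 9.90, 10.75 and 10.73 in doxorubicin hearts, against 11.46, 10.83, 10.81 and 10.77 in control hearts. Apart from the low doxorubicin heart 2 and the high control heart 1, the 6 other hearts spanned about 0.1. The difference of -0.42 (SE 0.22, adjusted p = 0.45) was -0.26 without control heart 1, -0.21 without doxorubicin heart 2 and -0.05 without both.

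Rpl37a, a zinc-binding protein, was at 12.25, 11.71, 12.41 and 12.08 in doxorubicin hearts, against 12.93, 12.33, 12.39 and 12.28 in control hearts (difference -0.37, SE 0.17, adjusted p = 0.404, and -0.08 without both hearts). Rpl35, which lies at the exit of the peptide tunnel, was at 11.11, 10.54, 11.03 and 10.99 in doxorubicin hearts, against 11.49, 11.17, 11.07 and 11.04 in control hearts (difference -0.27, SE 0.14, adjusted p = 0.444, and -0.05 without both hearts). In both genes the groups overlapped, also without these 2 hearts. Rpl34 had the smallest p of the cytosolic genes and was at 11.40, 11.25, 11.46 and 11.39 in doxorubicin hearts, against 11.75, 11.64, 11.42 and 11.53 in control hearts. Doxorubicin heart 3 lay above control heart 3, so its groups overlapped (difference -0.21, SE 0.08, unadjusted p = 0.0264, adjusted p = 0.278, and -0.11 without both outlying hearts).

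The proteins that can bind Mdm2 did not pass the test in either direction. Rpl5 was at 12.55, 12.56, 12.62 and 12.58 in doxorubicin hearts, against 12.48, 12.60, 12.59 and 12.49 in control hearts (difference 0.04, SE 0.05, adjusted p = 0.861). Rpl11, its partner in binding 5S ribosomal RNA, was at 11.66, 11.06, 11.68 and 11.54 in doxorubicin hearts, against 12.01, 11.45, 11.52 and 11.38 in control hearts (difference -0.10, SE 0.17, adjusted p = 0.873). The residual SD was 0.290 for Rpl11 and 0.049 for Rpl5, and in Rpl11 the extremes were again control heart 1 and doxorubicin heart 2. Rpl23 differed by -0.07 (SE 0.08, adjusted p = 0.808), and Rplp0, the base of the ribosomal stalk and often used as a reference transcript, by 0.04 (SE 0.06, adjusted p = 0.881). Rpl22, which also binds RNAs outside the ribosome, differed by -0.15 (SE 0.10, adjusted p = 0.593).

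Paralogs of large subunit proteins did not pass the test either. Rpl3l, which replaces Rpl3 in heart and skeletal muscle ribosomes, was at 11.36, 11.26, 11.25 and 11.11 in doxorubicin hearts, against 11.22, 11.10, 11.06 and 11.04 in control hearts (difference 0.14, SE 0.07, adjusted p = 0.451). Rpl3 itself was at 11.52, 11.49, 11.52 and 11.83 in doxorubicin hearts, against 11.30, 11.61, 11.67 and 11.49 in control hearts (difference 0.07, SE 0.10, adjusted p = 0.846). Both overlapped between the groups. Rpl7l1, a nucleolar relative of Rpl7, was at 8.53, 8.29, 8.39 and 8.50 in doxorubicin hearts, against 8.11, 8.40, 8.17 and 8.24 in control hearts (difference 0.20, SE 0.08, unadjusted p = 0.0359, adjusted p = 0.318), and its other probe set differed by 0.19. The low-intensity paralogs Rpl26l1 and Rpl39l1 differed by 0.09 (SE 0.08, adjusted p = 0.727) and -0.06 (SE 0.09, adjusted p = 0.848). Of these paralogs only Rpl39l1 had a negative difference, smaller than its SE and at a level of 3.78. Rpl6, chosen after its values were seen, was the cytosolic gene with the tightest groups, at 12.13, 12.14, 12.12 and 12.14 in doxorubicin hearts, against 12.07, 12.08, 12.05 and 12.06 in control hearts. Its groups did not overlap, but the difference was 0.06 (SE 0.05, adjusted p = 0.646).

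**Figure D4:**
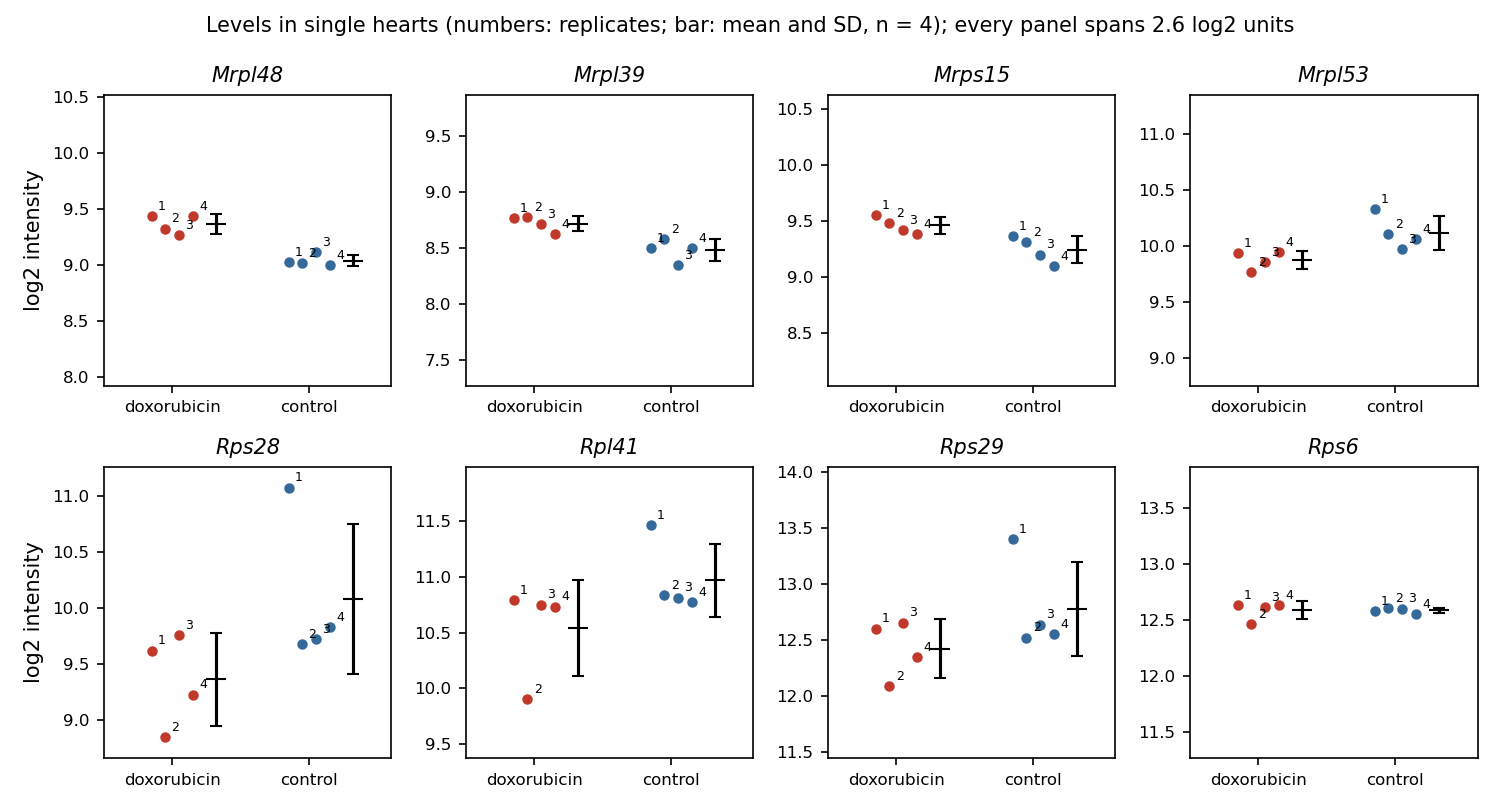
Log2 intensity of single ribosomal protein genes in each heart, with doxorubicin on the left and control on the right of every panel, numbers for the replicates and bars for the mean and SD (n = 4). Control heart 1 (11.08) stands above the other control hearts for Rps28, doxorubicin heart 2 (9.90) stands below the other doxorubicin hearts for Rpl41, and the groups do not overlap for Mrpl48.

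Large subunit genes of the mitochondrial ribosome included the only member called. Mrpl48, a protein of the large subunit's central protuberance, rose 1.26-fold in doxorubicin hearts. It was at 9.43, 9.32, 9.26 and 9.43 in doxorubicin hearts, against 9.02, 9.01, 9.11 and 8.995 in control hearts, so every doxorubicin heart lay above every control heart. The difference was 0.33 (SE 0.06, limma adjusted p = 0.0245), from the gene's single probe set. Its size was 0.30 to 0.36 when single hearts were left out, but the call was lost without control heart 4 (adjusted p = 0.0723) and without doxorubicin heart 1 (0.0907), 2 (0.0569) or 4 (0.0779). Adjusted for the hybridization controls, as a covariate, the difference was 0.43 (SE 0.10) and the adjusted p 0.231. This covariate does not overlap between the groups, so its part cannot be told apart from that of the drug.

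Other large subunit genes had smaller differences that did not pass. Mrpl39, a protein found in mitochondrial but not bacterial ribosomes, was at 8.76, 8.78, 8.71 and 8.63 in doxorubicin hearts, against 8.50, 8.58, 8.35 and 8.50 in control hearts. Its groups did not overlap (difference 0.24, SE 0.07, adjusted p = 0.12), and the difference was 0.13 with the hybridization covariate. Mrpl46, which like Mrpl48 sits in the central protuberance, was at 8.07, 7.997, 8.05 and 8.01 in doxorubicin hearts, against 8.01, 7.85, 7.72 and 7.73 in control hearts, where control heart 1 reached into the doxorubicin range (difference 0.20, SE 0.07, adjusted p = 0.23). Mrpl18, a counterpart of bacterial L18 named after its values were seen, differed by 0.15 (SE 0.06, unadjusted p = 0.034, adjusted p = 0.309).

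Mrpl53, a mitochondria-specific protein near the base of the stalk, was the member of this ribosome with the largest negative difference. It was at 9.94, 9.77, 9.86 and 9.95 in doxorubicin hearts, against 10.33, 10.10, 9.97 and 10.06 in control hearts. The groups did not overlap, though doxorubicin heart 4 and control heart 3 nearly met (difference -0.24, SE 0.08, adjusted p = 0.217, and -0.13 without both control heart 1 and doxorubicin heart 2).

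Large subunit proteins picked for their roles showed little difference. Mrpl12, the mitochondrial counterpart of the bacterial stalk protein, was at 10.90, 10.79, 10.90 and 10.77 in doxorubicin hearts, against 10.97, 10.80, 10.70 and 10.77 in control hearts (difference 0.03, SE 0.07, adjusted p = 0.921). Mrpl3 and Mrpl44, both mutated in human mitochondrial disease with cardiomyopathy, differed by 0.12 (SE 0.06, adjusted p = 0.478) and 0.08 (SE 0.08, adjusted p = 0.737), and Mrpl41 by -0.03 (SE 0.07, adjusted p = 0.933). Mrps30, counted here with the small subunit by its symbol although the protein belongs to the large one, differed by 0.01 (SE 0.07, adjusted p = 0.974).

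Small subunit genes of the mitochondrial ribosome (27 by symbol) included 4 higher and 0 lower with an unadjusted p under 0.05, and none was called. These counts stand beside 9.67% of all genes higher and 7.07% lower at that threshold. Mrps15, the counterpart of bacterial S15, was at 9.55, 9.48, 9.42 and 9.38 in doxorubicin hearts, against 9.36, 9.31, 9.20 and 9.10 in control hearts. Its groups did not overlap, by a margin of 0.02 (difference 0.22, SE 0.07, adjusted p = 0.205), while a second, dim probe set stood at 0.02. Mrps31, a mitochondria-specific protein, was at 9.12, 9.14, 9.06 and 9.04 in doxorubicin hearts, against 8.78, 9.01, 8.85 and 8.99 in control hearts (difference 0.18, SE 0.07, adjusted p = 0.259). Here too the groups did not overlap, and control heart 1 was the lowest heart rather than the highest.

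Mrps14, the counterpart of bacterial S14, was at 9.98, 9.95, 10.03 and 9.93 in doxorubicin hearts, against 9.85, 9.81, 9.78 and 9.93 in control hearts (difference 0.13, SE 0.06, adjusted p = 0.347), with another probe set at 0.09. Its groups were also apart, by less than 0.01. Mrps27, a pentatricopeptide repeat protein, was at 8.05, 8.13, 8.04 and 7.96 in doxorubicin hearts, against 8.01, 7.91, 7.74 and 7.58 in control hearts (difference 0.23, SE 0.09, adjusted p = 0.299), and its other probe sets differed by 0.22 and 0.15. Control heart 1 reached into the doxorubicin range for Mrps27. Mrps12, the counterpart of the decoding protein S12, differed by 0.08 (SE 0.08, adjusted p = 0.783), and Mrps22, mutated in human disease with cardiomyopathy, by 0.05 (SE 0.06, adjusted p = 0.821).

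The 3 Mrps18 paralogs, each related to bacterial S18, did not share a direction. Mrps18a, whose protein sits in the large subunit, was at 8.91, 8.82, 8.86 and 8.67 in doxorubicin hearts, against 9.41, 8.91, 8.91 and 8.84 in control hearts (difference -0.21, SE 0.12, adjusted p = 0.529). Without the high control heart 1 its difference was -0.08. Mrps18b differed by 0.06 (SE 0.06, adjusted p = 0.741). Mrps18c was at 7.75, 6.85, 7.32 and 7.29 in doxorubicin hearts, against 7.68, 7.60, 7.32 and 7.21 in control hearts, the widest spread of the mitochondrial genes (residual SD 0.303; difference -0.15, SE 0.18, adjusted p = 0.799).

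Spread within the groups was uneven among the members. The median within-group SD was 0.113 for cytosolic, 0.111 for mitochondrial and 0.123 for all genes, and an SD over 0.2 was found in 9 of 50 cytosolic genes (18%), 8 of 73 mitochondrial genes (10.96%) and 14.95% of all genes. The 4 cytosolic genes with the widest spread were Rps28 (residual SD 0.556), Rpl41 (0.381), Rps4y2 (0.378) and Rps29 (0.350). In each of them control heart 1 was the highest and doxorubicin heart 2 the lowest of the 8. For Rps4y2, though, doxorubicin heart 2 (4.97) lay close to doxorubicin hearts 1 (4.995) and 3 (5.02). There doxorubicin heart 4 (5.73) stood apart from its group. Over the 8 hearts Rps28 spanned 2.23 log2 units, whereas Rpl6 and Rpl5 spanned about 0.1. The 3 cytosolic members below 4.16 (25% of probe sets are this dim) were Rps13 (4.02), Rpl39l1 (3.78) and Rps4x-ps1 (3.54), where differences are uncertain, and 0 mitochondrial members were that dim.

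Second probe sets gave a limited check of the representatives, since some were dim, such as those of Mrps18c (3.81) and Mrps22 (3.89). Of the members, 24 genes had 31 other probe sets, of which 0 were called, beside 0.689% of all probe sets called higher and 1.52% called lower (2.21% in either direction), and 18 had the sign of the representative (5 of 7 cytosolic and 13 of 24 mitochondrial). The widest of them, for Mrpl50, stood at -0.30 (adjusted p = 0.205), opposite in sign to its representative at 0.04.

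Genes that work with the ribosome were counted from lists of other translation and assembly genes. Among 38 measured mitochondrial translation and mitoribosome assembly factors 2 rose and 0 fell, with an unadjusted p under 0.05 in 12 higher and 1 lower gene and a median of 0.11. These are 2 and 12 of 38 higher, beside 0.802% of all genes called higher and 9.67% higher at the unadjusted threshold. The 0 and 1 lower stand beside 2.17% and 7.07% of all genes. Mief1, which encodes a mitochondrial outer membrane receptor for the fission machinery and, from an upstream reading frame, a small protein bound to assembling mitoribosomes, was at 6.60, 6.69, 6.77 and 6.60 in doxorubicin hearts, against 5.89, 5.91, 6.13 and 6.26 in control hearts (difference 0.62, SE 0.09, adjusted p = 0.00615). Mpv17l2, an inner membrane protein needed for mitoribosome assembly, was at 7.53, 7.55, 7.51 and 7.36 in doxorubicin hearts, against 7.22, 7.15, 6.88 and 7.09 in control hearts (difference 0.40, SE 0.08, adjusted p = 0.0363). Neither gene's groups overlapped. The Mief1 call held with any single heart left out, with adjusted p-values of 0.00416 to 0.0267, and was lost with the hybridization covariate (0.65, adjusted p = 0.274). The Mpv17l2 call was lost without control heart 3 or 4 and without doxorubicin heart 1, 2 or 3 (adjusted p = 0.0705 to 0.121), and with the covariate its difference was 0.24 (adjusted p = 0.845). The covariate cannot be told apart from the drug for either gene. Repeated quantile normalization (limma adjusted p = 0.0648) and an intensity trend in the fit (0.058) also lost the Mpv17l2 call. So did a replicate block (0.071) and leaving out both control heart 1 and doxorubicin heart 2 (0.0781).

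None of the other lists held a called gene, and their counts at an unadjusted p under 0.05 stand beside 9.67% of all genes higher and 7.07% lower. Nucleolar and cytosolic assembly factors (57 measured) had 15 higher and 1 lower gene with an unadjusted p under 0.05 and a median of 0.08, led by the helicase Ddx18 (difference 0.28, SE 0.07, adjusted p = 0.0675). Initiation factors (32 measured) had 7 higher and 1 lower and a median of 0.08, led by Eif3c (0.23, SE 0.06, adjusted p = 0.093). All 13 elongation and termination factors had a positive difference, beside 7375 of all 14217 genes. Their median was 0.09, and 3 were higher at an unadjusted p under 0.05, among them the ribosome recycling factor Abce1 (0.23, SE 0.07, adjusted p = 0.141). Of 15 mTORC1 pathway genes 1 was higher at that p (median 0.07), as was 1 of 15 mitochondrial aminoacyl-tRNA synthetases (median 0.09). Rack1, a ribosomal protein of the small subunit with a name outside the symbol rule, differed by 0.05 (SE 0.06, adjusted p = 0.8). These medians are set beside 0.0063 for all genes and -0.04 and 0.03 for the 2 classes of ribosomal protein genes, as a description.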

How the data were processed

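Each of 8 rat hearts was read on its own Affymetrix array. The authors deposited 1 intensity per probe set and array, made by RMA per the submitters' processing notes. The sources used here do not name its software or version. The values are on a linear scale, so their log2 was taken with no offset. Of 31099 probe sets, 57 controls were left out. Symbols came from the platform annotation, which gave 1 symbol to 20826 probe sets, several to 436 and none to 9780. The gene ID of 121 of the 123 members was found in RefSeq (GRCr8), and 0 symbols needed an update. Ribosomal protein genes have many near-identical processed pseudogenes, so a probe set may read more than the gene it names. Arrays have no sequencing depth, and their number limits the precision.

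The groups were compared by limma 3.58.1 (lmFit and eBayes, R 4.3.3), two-sided, with Benjamini-Hochberg adjustment over 31042 probe sets and calls under 0.05. The label's replicates were taken as separate animals. Array measures were compared by exact permutation over 70 ways. Levels of different probe sets were not compared. No class of genes was tested as a list. Named were called members, the 4 members of each of 4 subunit classes with the smallest p, the 2 with the largest difference, and 23 measured of 33 members picked by role. From the other lists, called genes and some with the smallest p were named. Rpl6, Mrpl18, Rpl26l1, Rpl39l1 and Mrpl50 were added after their values were seen. The members and lists were chosen with earlier results of these data known. The fit was tested on simulated data. Alternatives are given in the closing section. Figures used Python 3.11.15 and matplotlib 3.10.9.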

Additional observations from a re-analysis of the deposited data

Results flagged for a closer look

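A named gene or array measure was looked at again where 1 of the 4 hearts of a group stood apart from the other 3 by Dixon's criterion (the gap to the nearest heart over the group's range). This was met in 12 of 82 groups tested. For a single group chance gives about 1 in 20, but that rate cannot be applied to this count. The groups share the same hearts, and the class means contain genes that were also tested singly. Some genes, among them Rps28, Rps29 and Rpl41, were named for a large difference, which 1 extreme heart can produce. Whether the count exceeds chance was not tested. Doxorubicin heart 2 stood apart for Rpl41 (9.90, others 10.73 to 10.79), Rpl22 (10.8, others 10.94 to 10.95) and Rps6 (12.47, others 12.62 to 12.64), and for the mean deviation of the cytosolic genes (-0.19, others 0.0067 to 0.02), each time as the lowest. Control heart 1 stood apart as the highest for Rps28 (11.08, others 9.68 to 9.83), Rps29 (13.40, others 12.52 to 12.64), Rpl41 (11.46, others 10.77 to 10.83) and Mrps18a (9.41, others 8.84 to 8.91). Doxorubicin heart 4 was high for Rpl3 (11.8, others 11.49 to 11.52) and Rps4y2 (5.73, others 4.97 to 5.02). Control heart 3 was low for Mrps22 (8.97, others 9.16 to 9.17). Doxorubicin heart 1 had the highest hybridization control level of its group (10.13, others 9.97 to 9.99).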

How the results depend on the processing

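The count of cytosolic genes called was 0 under every alternative run. The 1 mitochondrial call, Mrpl48, was kept with adjusted p-values of 0.0154 to 0.0496 and lost (0 called) with the hybridization controls as a covariate, with the replicate block (adjusted p = 0.0959) and without both control heart 1 and doxorubicin heart 2 (0.092), an alternative added after seeing the data; leaving out single hearts gave 0 to 1. Of all probe sets 687 were called, 92 with the hybridization covariate, 511 with the replicate block, and 397 to 854 when single hearts were left out. The hybridization level separated the groups completely, so results with that covariate cannot be told apart from the drug. With single hearts left out, the class medians ranged from -0.06 to -0.0034 for cytosolic and from -0.0058 to 0.08 for mitochondrial genes, and without both hearts they were 0.02 and 0.10. Same-numbered hearts did not deviate together (correlations 0.06, -0.04, -0.03 and -0.18), so the numbers were not taken as pairs. Over the named genes and alternatives, 784 values kept their side of the threshold and, where not called, moved by less than the within-group SD, 7 were the lost Mrpl48 call and 6 moved by more than that SD, 5 of them under the hybridization covariate, with no change of direction among called values. Signal limits the 3 dimmest cytosolic members and may also limit Rpl28 (4.17) and Rpl30 (4.35), just above the 4.16 cut. All of them are counted among the 50 cytosolic genes.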

Other observations

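The 36 ribosomal protein probe sets left out for carrying several symbols showed the 2 outlying hearts again, and more strongly. Their mean deviation was 0.03, -0.27, 0.0029 and -0.0010 in doxorubicin hearts 1 to 4, against 0.21, 0.05, -0.02 and -0.0030 in control hearts 1 to 4. Doxorubicin heart 2 was the lowest of the 8 in 28 of them (77.8%) and control heart 1 the highest in 21 (58.3%).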
